A study of Mus musculus with 16 samples.

Results

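The cytosolic ribosomal protein genes encode the protein part of the ribosome that translates nuclear-encoded mRNAs. They were taken from the gene table as every symbol of the form Rpl or Rps followed by a number and at most the letter a, x or y, together with Rplp0, Rplp1, Rplp2, Rpsa and Rps3a1, which leaves out kinases, mitochondrial ribosomal proteins and pseudogenes. This gave 75 of 16383 genes, 31 of the small subunit and 44 of the large subunit. All 75 passed the filter on low values. Rpl24 and Rpl41 were not analysed here, and Fau, which encodes a ribosomal protein fused to a ubiquitin-like protein, falls outside this choice and is given separately.

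The study sorted undifferentiated spermatogonia, the earliest germ cells of the adult testis, stem cells among them, from adult mice and sequenced their polyadenylated RNA. Every mouse had received busulfan, an alkylating drug that depletes germ cells, at 10 mg/kg by intraperitoneal injection, and cells were collected 10 days later. From day 3 each mouse was injected daily for 7 days with PD0325901 (PD), a MEK inhibitor that blocks ERK activation, at 2.5 mg/kg, or with vehicle, 10% DMSO in PBS. The groups were Spry4 G-KO mice given PD (KO_PD), Spry4 G-KO mice given vehicle (KO_vehicle), WT mice given PD (WT_PD) and WT mice given vehicle (WT_vehicle), with 4 libraries in each. Spry4 encodes a Sprouty protein, which restrains receptor tyrosine kinase signalling as part of a feedback loop. The column names add GCRT to the knockout and Spry4ff to WT, so any effect of carrying GCRT cannot be told apart from loss of Spry4. The exact age, the sort markers and the deleted stretch of Spry4 are stated in none of the labels. Nor do the labels tie a library to 1 animal, so p-values reflect only how these libraries vary.

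Spry4 itself had 8.23 to 19.3 FPKM (fragments per kilobase of transcript, scaled to sequencing depth) in KO_PD libraries and 7.28 to 14.7 FPKM in KO_vehicle libraries, against 15.9 to 27.4 FPKM in WT_PD libraries and 19.9 to 23.8 FPKM in WT_vehicle libraries. The vehicle groups did not overlap in Spry4, whereas the PD groups did. All 10 markers of undifferentiated spermatogonia were present, at a summed 666 to 1029 FPKM per library. The 7 contractile markers of peritubular myoid cells (Acta2, Myh11, Tagln, Des, Cnn1, Myl9 and Tpm2) summed to 3326 to 9740 FPKM in KO_PD, 1351 to 7079 in KO_vehicle, 1152 to 11893 in WT_PD and 2472 to 7695 in WT_vehicle libraries. Spermatid markers summed to between 8.59 and 2579 FPKM, the highest in a KO_vehicle library, and to at most 122 FPKM in the other groups. Of these markers Prm1 had 739 FPKM in KO_vehicle 3 and at most 32.5 FPKM in any other library. In bulk samples fewer cells of a type and less RNA per cell cannot be told apart. The steps between low values gave 22068400 to 37600000 counted reads in matched genes per library, which is 86.7 to 113% of the number each library's FPKM was divided by, so that number is a normalised size.

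A eukaryotic ribosome holds its proteins in fixed stoichiometry, and free ribosomal proteins are degraded, so that their genes are usually expressed together. Their mRNAs typically open with a cytosine followed by a run of pyrimidines, the terminal oligopyrimidine (TOP) motif, through which mTORC1 signalling controls their translation. In the male germline several X-linked ribosomal protein genes have autosomal paralogues, which are known for supplying the protein when the X chromosome is silenced in meiosis.

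Start sequences are shown for members that carry the family's TOP motif and for the X-linked members and paralogues described further on. Each runs from 30 bases before to 20 bases from the annotated start, 5′ to 3′, from RefSeq on GRCm38.p6, and capitals mark a tract of a C followed by at least 4 C or T within 5 bases of the start. The strand is given after the coordinates.
Rpl35 (chr2:39005112-39005161, minus): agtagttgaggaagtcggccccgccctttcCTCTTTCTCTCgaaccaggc
Rps18 (chr17:33955646-33955695, minus): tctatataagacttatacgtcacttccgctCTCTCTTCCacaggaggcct
Rpl38 (chr11:114668550-114668599, plus): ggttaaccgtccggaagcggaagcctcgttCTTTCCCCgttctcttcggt
Rplp2 (chr7:141447621-141447670, plus): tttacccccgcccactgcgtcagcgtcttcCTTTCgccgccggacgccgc
Rpl10 (chrX:74270786-74270835, plus): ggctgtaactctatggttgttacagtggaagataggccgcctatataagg
Rpl10l (chr12:66284382-66284431, minus): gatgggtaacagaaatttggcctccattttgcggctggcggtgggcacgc
Rpl39 (chrX:37085203-37085252, minus): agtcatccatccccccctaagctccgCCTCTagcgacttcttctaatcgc
Rpl39l (chr16:10170198-10170247, plus): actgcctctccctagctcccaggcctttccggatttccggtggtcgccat
Rps4x (chrX:102189372-102189421, minus): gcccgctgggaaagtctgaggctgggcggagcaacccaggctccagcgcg

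Of 55 members with an annotated start in this table, 13 (23.6%) had such a tract beginning exactly at the start, against 813 of 27025 genes (3.01%). Within 5 bases of the start a tract was found in 27 members (49.1%), against 21.2% of all genes. Tracts were searched only on the strand with the sense of the mRNA. The motif CCGGAAG, searched on both strands of the 300 bases around the start, was found in 23 members (41.8%), against 9.93% of all genes. Rpl35, Rps18, Rpl38 and Rplp2 carry a tract at the start itself, Rpl39 carries one that begins before it, and no such tract begins within 5 bases of the start of Rpl10, Rps4x, Rpl10l or Rpl39l. Tracts that begin farther upstream stand in the windows of Rpl10l and Rpl39l, and in Rpl39l one of them ends directly at the start. These are descriptions of letters at annotated starts.

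Levels differed far more between members than between libraries. Mean FPKM over the 16 libraries ran from 3.74 for Rps10 to 768 for Rpl4, a 205-fold range, with a median of 121 FPKM. There were 43 members over 100 FPKM and 3 under 20 FPKM. Among the highest were Rpl4, a core large subunit protein, at 768 FPKM, Rplp1, an acidic protein of the stalk that recruits elongation factors, at 697 FPKM, and Rps15 and Rpl8 at 649 and 495 FPKM. The 5 lowest were Rps10 at 3.74 FPKM, Rpl13a at 5.79, Rpl39, a small protein that lines the exit tunnel, at 15.01, Rpl30 at 31.4 and Rpl35a at 33.0. Rps10 had 2.13 to 4.87 FPKM in single libraries from 140 to 409 reads.

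**Figure D1:**
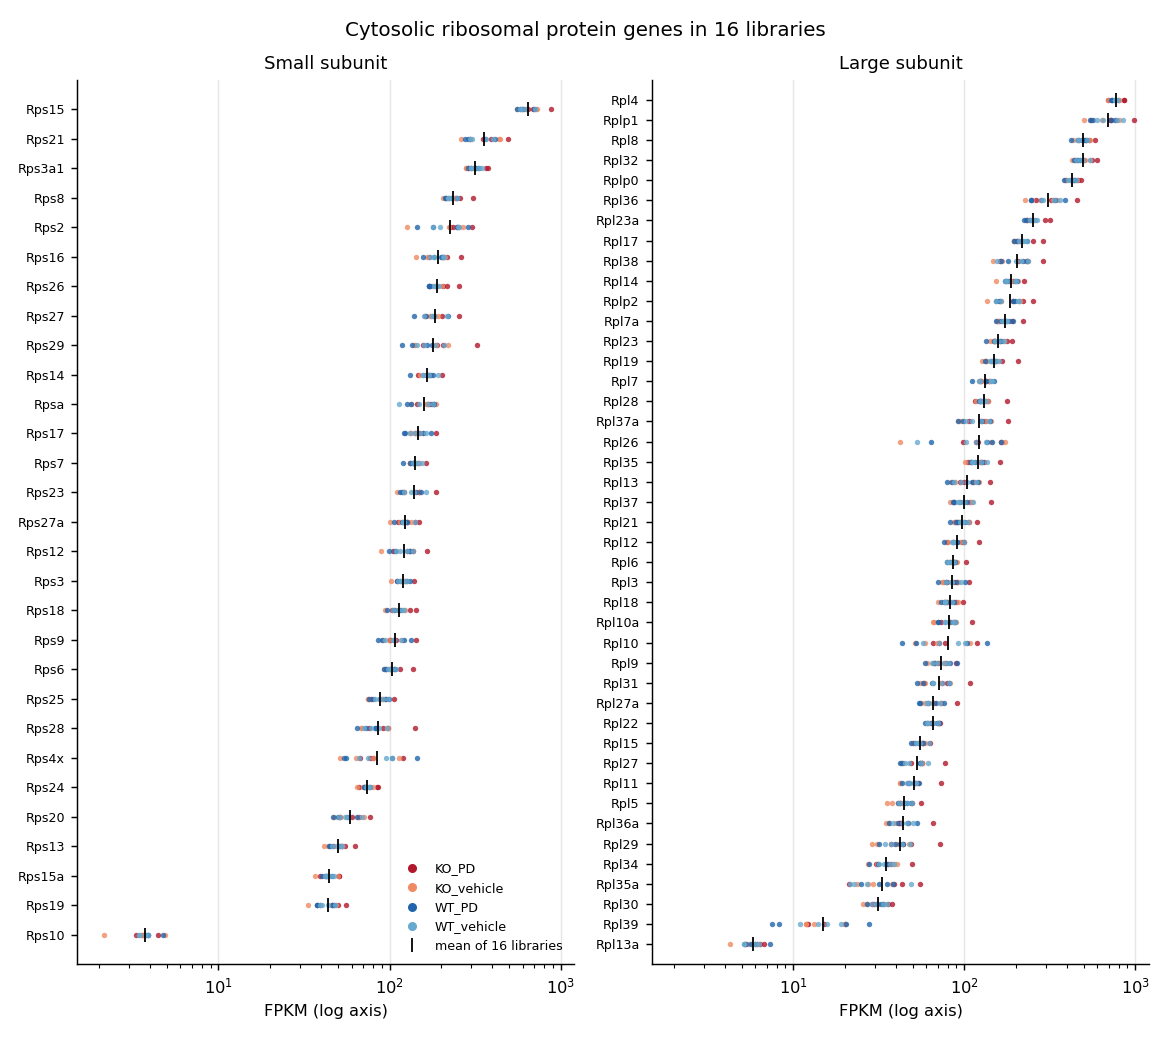
FPKM on a log axis for the small subunit and large subunit genes reported here, sorted by mean; points are the 16 libraries, coloured by group, and black ticks are means. Rps10, Rpl13a and Rpl39 lie under 20 FPKM, and the points of Rpl26, Rpl10, Rpl35a, Rpl39 and Rps4x spread wider than those of their neighbours.

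The order also moved with gene length. Across the 75 members, which are not independent replicates, mean FPKM fell with the summed exon length (Spearman's rho -0.61). FPKM is divided by gene length, and most low values were whole reads at this summed length, so such a fall is partly built in. At least 1 stretch of 50 bases was shared with another annotated gene in 74 members, and 20 members shared over 50% of their 50-base stretches. Rpl36a shared 85.5%, Rpl10 73.7% and Rps4x 72.2% of them. On the same strand, another annotated gene covered 35.4% of the exons of Rpl13a and 20.6% of those of Rps10. No source used here says how the authors' counting treated such reads, so levels of these genes are uncertain.

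The members with separate known roles sat inside this range. Rplp0, the base of the stalk, averaged 429 FPKM, and its partner Rplp2 averaged 207 FPKM in KO_PD, 180.3 in KO_vehicle, 176 in WT_PD and 183 in WT_vehicle libraries. Rps6, the substrate of S6 kinases, averaged 112 FPKM in KO_PD, 98.8 in KO_vehicle, 100.4 in WT_PD and 102.6 in WT_vehicle libraries. Rpl5 and Rpl11, which join 5S rRNA and can bind Mdm2 when ribosome assembly fails, averaged 44.4 and 50.6 FPKM. Rps19, the gene most often mutated in Diamond-Blackfan anaemia in humans, averaged 43.7 FPKM, and Rps14 166 FPKM. Rpl38, which in mice is needed for translation of Hox mRNAs, averaged 204 FPKM, Rpl3, next to the peptidyl transferase centre, 85.3 FPKM, Rpl22 65.8 FPKM, Rps3 119.9 FPKM, Rps25 87.8 FPKM and Rps27a, made as a fusion with ubiquitin, 123.8 FPKM.

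Together the members held between 4.69 and 6.36% of the summed FPKM in every library. The share was 5.04, 5.95, 5.79 and 6.36% in the KO_PD libraries, 4.69, 5.42, 5.63 and 5.49% in the KO_vehicle libraries, 5.45, 5.16, 4.72 and 4.98% in the WT_PD libraries and 5.42, 4.87, 5.42 and 5.49% in the WT_vehicle libraries. The means were 5.79 ± 0.551% in KO_PD, 5.31 ± 0.418% in KO_vehicle, 5.08 ± 0.308% in WT_PD and 5.30 ± 0.286% in WT_vehicle libraries (SD, n = 4 each). The ranges of all 4 groups overlapped, for KO_PD through KO_PD 1 alone. The other KO_PD libraries had the highest shares of all libraries. The median member had 123 ± 15.7 FPKM in KO_PD, 114 ± 15.5 in KO_vehicle, 117 ± 12.6 in WT_PD and 117 ± 12.4 in WT_vehicle libraries (SD, n = 4 each).

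**Figure D2:**
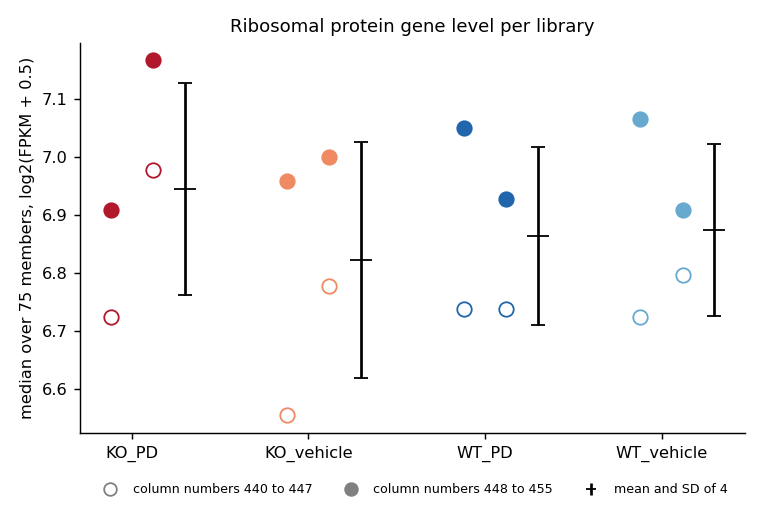
Median over the 75 members of log2(FPKM + 0.5) in each library by group; open circles are libraries whose column names open with the lower numbers, filled circles those with the higher numbers, and bars are the mean and SD of 4. All groups overlap. Both filled circles lie above both open circles in 3 of the 4 groups, and in KO_PD 1 of them lies under an open circle.

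No member passed the test for genotype or drug. With limma on log2(FPKM + 0.5) across 12907 genes and Benjamini-Hochberg adjustment, 0 of 75 members had an adjusted p under 0.05 in the 4 pairwise comparisons and in the interaction of genotype and drug. The background was also 0 of 12907 genes, or 0%, in every comparison, so a count of 0 is no result about the members. Spry4 itself did not pass for KO over WT. Its log2 difference was -1.01 with vehicle (adjusted p = 0.9998, limma) and -0.75 with PD (adjusted p = 0.988, limma). At an unadjusted p under 0.05, 0 members stood against 1.94% of genes for KO over WT with vehicle, 4 members against 4.69% for KO over WT with PD, 3 members against 2.96% for PD over vehicle in KO, 0 members against 0.891% for PD over vehicle in WT and 0 members against 1.71% for the interaction. The pairwise comparisons share control libraries with each other.

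The fitted differences of the members leaned to one side in each comparison without passing the test, and 2 of these leans ended when single libraries were left out. For KO over WT with vehicle the median member difference was -0.05 on the log2 scale, with 16 of 75 above 0, beside -0.01 over all genes. For KO over WT with PD it was 0.14, with 73 of 75 above 0 (Rps10 and Rpl7 were the others), beside -0.01 over all genes. For PD over vehicle in KO it was 0.16, with 74 of 75 above 0, beside 0.00 over all genes, and in WT it was -0.05, with 16 of 75 above 0, beside 0.01 over all genes. The median difference between the drug's differences in KO and in WT was 0.20, with 73 of 75 above 0. The standard error of a member's pairwise difference had a median of 0.12, so a typical difference was close to its own error. Leaving out 1 library gave medians from -0.10 to 0.02 for KO over WT with vehicle, the highest without KO_vehicle 1, and from -0.10 to 0.00 for PD over vehicle in WT, the highest without WT_vehicle 3. Members of 1 library are not replicates, and each group rests on 4 libraries.

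The 2 upward leans depended in size on single KO_PD libraries. The median member stood at 143 FPKM in KO_PD 4, the highest of all 16 libraries, where the other KO_PD libraries had 105.3, 125.6 and 119.7 FPKM. Without KO_PD 4 the median difference was 0.06 for KO over WT with PD, 0.05 for PD over vehicle in KO and 0.11 for the interaction. Without KO_PD 1, the lowest of the group, it was 0.22, 0.24 and 0.28 in the same order. The contractile markers moved to the same side as the members in all 4 pairwise comparisons. Their median differences were -0.66 for KO over WT with vehicle, 0.53 for KO over WT with PD, 0.69 for PD over vehicle in KO and -0.48 for PD over vehicle in WT, and none of the 7 passed the test. With the marker mean as a term, the median member difference was 0.00 for KO over WT with vehicle, 0.11 for KO over WT with PD, 0.10 for PD over vehicle in KO and 0.00 for PD over vehicle in WT.

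**Figure D3:**
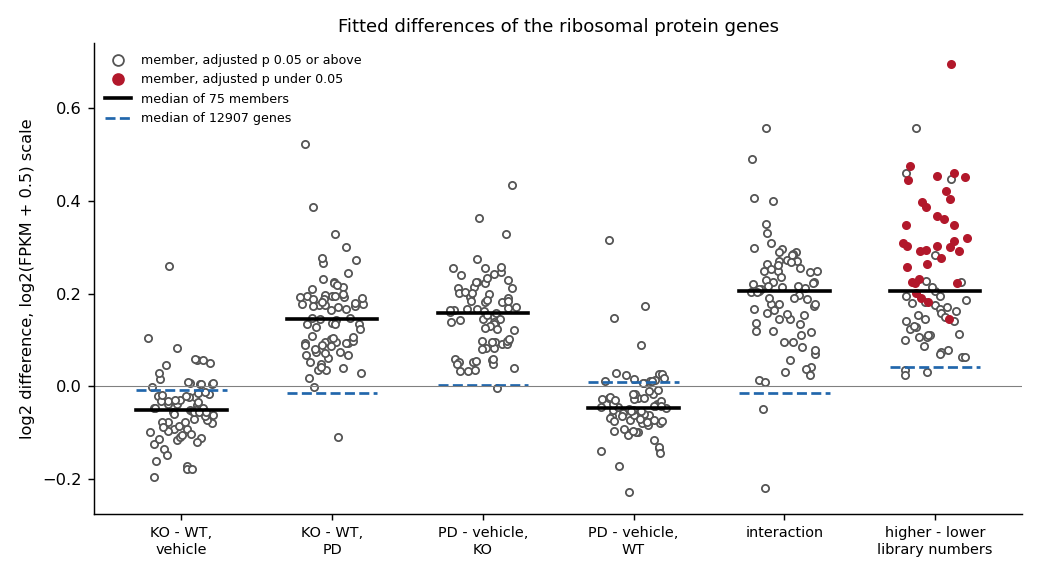
Fitted log2 differences of the 75 members in the 4 pairwise comparisons, the interaction and the comparison of higher with lower library numbers; black lines are member medians, dashed lines the medians of 12907 genes, and filled circles have an adjusted p under 0.05. Only the last comparison holds filled circles, 34 of them, all above 0.

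The members with the smallest p in these comparisons give the size of what could not be told from the spread. Rps29, a zinc-binding protein of the small subunit, had 158, 205, 190.5 and 325 FPKM in KO_PD libraries, against 117.7, 135, 178 and 166 FPKM in WT_PD libraries. Its difference was 0.52 ± 0.22 (SE; adjusted p = 0.988, limma) and the groups overlapped. Rps26 averaged 0.26 ± 0.10 higher (SE; adjusted p = 0.988, limma) in the same comparison, and Rpl23a 0.21 ± 0.10. For PD over vehicle in KO, Rpl5 had 42.1, 49.3, 42.3 and 55.9 FPKM in KO_PD libraries, against 35.2, 38.1, 41.2 and 43.4 FPKM in KO_vehicle libraries. That difference was 0.26 ± 0.10 (SE; adjusted p = 0.968, limma), and the highest KO_vehicle library lay above the 2 lowest KO_PD libraries. Rpl29 differed by 0.44 ± 0.20 and Rpl7a by 0.21 ± 0.10 there. For KO over WT with vehicle the smallest p was that of Rpl5 at -0.20 ± 0.10, and for PD over vehicle in WT that of Rps7 at -0.14. Relative to the median member of the same library, likewise 0 of 75 members and 0% of genes passed in any of these 5 comparisons.

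Genes around the ribosome were equally without calls. In the 5 comparisons no gene passed among 26 other TOP mRNAs of translation, 42 ribosome biogenesis factors, 15 genes of the RNA polymerase I machinery, 19 regulators of mTORC1 and TOP mRNAs, 8 tested S6 kinases, 7 snoRNA host genes and 76 mitochondrial ribosomal proteins. For PD over vehicle in KO the median difference was 0.01 for the other TOP mRNAs, 0.01 for the biogenesis factors, 0.06 for the mitochondrial ribosomal proteins and 0.14 for the snoRNA host genes, beside 0.16 for the members. Fau lay above 0 in that comparison, at 0.23, and in KO over WT with PD, at 0.21, and did not pass.

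The members did differ between libraries along a line that no treatment label gives. The column names open with numbers from 440 to 455, and each group has 2 libraries among the lower 8 and 2 among the higher 8. In every group the lower ones are replicates 1 and 2 and the higher ones replicates 3 and 4. This comparison was added after the values were seen, and the labels do not say what the numbers stand for. With groups as terms, all 75 members (51 after dividing each library by its total FPKM, 69 after median centring) were higher in the 8 libraries with higher numbers, by a median of 0.21 on the log2 scale, beside 0.04 over all genes. By limma, 34 members (45.3%) passed at an adjusted p under 0.05 and none was called lower, against a background of 7.40% of genes higher and 4.39% lower. For 6 members, Rpl13, Rpl36, Rpl37a, Rpl38, Rplp1 and Rps21, the 8 libraries of one kind lay wholly above the 8 of the other, against a background of 0.852% of genes.

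Rplp2, the stalk protein with the smallest p, had 192 to 252 FPKM with a median of 209 in the higher-numbered libraries, against 136 to 194 FPKM with a median of 160.1 in the lower-numbered ones. Its difference was 0.40 ± 0.06 (SE; adjusted p = 0.00544, limma), and only the highest lower-numbered library, KO_PD 2, reached the range of the others. Rpl13 had 103 to 141 FPKM with a median of 115 in higher-numbered libraries, against 79.1 to 100.1 FPKM with a median of 87.4 in lower-numbered ones, a difference of 0.40 ± 0.06 (adjusted p = 0.00614). Rps21 had 362 to 492 FPKM with a median of 407, against 263 to 354 FPKM with a median of 296, a difference of 0.48 ± 0.07 (adjusted p = 0.00646). The 2 sets of libraries were apart for Rpl13 and Rps21. Rpl37a, Rpl36, Rps19, Rpl27, Rpl38, Rps20, Rpl10a, Rps13, Rpl27a, Rps16, Rplp1 and Rps23 followed by p, with differences between 0.22 for Rps13 and 0.46 for Rpl36.

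At the other end Rps24, Rpl4 and Rps3a1 had the smallest differences. Rps24 had 69.8 to 85.0 FPKM with a median of 73.2 in higher-numbered libraries, against 64.9 to 85.7 FPKM with a median of 74.1 in lower-numbered ones. Its difference was 0.02, with an interval of 2 standard errors either way from -0.10 to 0.15.

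Members also differed in this comparison relative to the median member. The median member itself lay at 7.00 on the log2 scale in higher-numbered libraries and at 6.75 in lower-numbered ones. Subtracting it lowers every gene in the higher-numbered libraries, so shares of all genes are no like background here. On that scale 9 members were called higher, against 0.798% of genes, and 11 lower, against 41.6% of genes. Those higher were Rps21, Rpl37a, Rpl38, Rpl36, Rplp2, Rpl13, Rplp1, Rpl39 and Rps29, by 0.15 to 0.45. Those lower included Rps24, Rps3a1, Rpl4, Rpl23a, Rpl6, Rpl7, Rpl21, Rpl22, Rps7 and Rps26. The largest such fall was that of Rps24, which fell by 0.22 ± 0.05 (SE; adjusted p = 0.00400, limma).

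Other genes of translation were mixed in this comparison, in which 7.40% of all genes were called higher and 4.39% lower. Fau had 177 to 251 FPKM in higher-numbered libraries, against 122.4 to 166 FPKM in lower-numbered ones (difference 0.49 ± 0.07, adjusted p = 0.00492, limma). Of 76 mitochondrial ribosomal proteins 15 were called higher and 0 lower, with a median of 0.08. Of 26 other TOP mRNAs 1 was called higher and 1 lower, with a median of 0.10. Of 42 biogenesis factors 0 were called higher and 2 lower, with a median of -0.04.

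Library-wide values moved with the numbers too. The contractile marker mean was 8.79 ± 0.960 on the log2 scale in higher-numbered libraries, against 7.71 ± 0.913 in lower-numbered ones (SD, n = 8 each), and summed FPKM was 242446 ± 18439, against 217332 ± 11142. The count of members called was 11 (background 2.42%) after dividing each library by its total FPKM, 18 (3.56%) after centring on the median gene and 14 (2.52%) with the contractile marker mean as a term. No member was called lower in these 3 fits, against 14.4, 5.86 and 0.581% of genes. Dividing by total FPKM moved the median of all genes by -0.15 in this comparison, to -0.11, and the median member was then at 0.05 with 51 of 75 above 0. Leaving out 1 library gave 15 to 40 calls: 15 without KO_vehicle 4, 16 without WT_PD 1, 19 without KO_PD 4, 20 without KO_PD 1, 20 without WT_vehicle 3, 22 without KO_vehicle 2 and 22 without WT_PD 2. The part of these values in the shift was not tested.

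The treatment comparisons were also read within the library numbers. Within the lower and the higher numbers, with 2 libraries a group, the median member differed by 0.15 and 0.14 for KO over WT with PD and by 0.16 and 0.15 for PD over vehicle in KO. It differed by -0.11 and 0.01 for KO over WT with vehicle and by -0.09 and 0.00 for PD over vehicle in WT.

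Most members kept to the common level within a library. The SD of a member's departure from the library's median member was under 0.15 on the log2 scale in 62 members, and the correlation with the median of the other members over the 16 libraries was above 0.8 in 49 and under 0.5 in 6. Among the tightest were Rpl35, with an SD of 0.06, Rps13, Rps19 and Rps23. Only Rpl26, Rpl10, Rpl35a, Rpl39 and Rps4x had an SD above 0.3. Of these, 3 are X-linked.

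The X chromosome carries 4 members, Rpl10, Rps4x, Rpl39 and Rpl36a, and all 4 rose with the contractile marker mean. Rpl10 joins the large subunit late in its maturation, and Rps4x is the X-linked form of a small subunit protein. Rpl10 had 71.5, 66.1, 77.6 and 118.6 FPKM in KO_PD libraries, 69.6, 59.3, 51.9 and 108.5 in KO_vehicle libraries, 52.5, 43.2, 135.8 and 103.8 in WT_PD libraries and 57.4, 92.4, 101.2 and 71.5 in WT_vehicle libraries. Rps4x had 77.2, 67.05, 80.1 and 119.6 FPKM in KO_PD libraries, 79.7, 63.6, 51.3 and 114.0 in KO_vehicle libraries, 55.6, 53.9, 145.7 and 102.9 in WT_PD libraries and 66.2, 95.8, 103.2 and 74.6 in WT_vehicle libraries. Both were highest in WT_PD 3 and, of the KO libraries, in KO_PD 4 and KO_vehicle 4, while the groups overlapped.

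Rpl39 had 12.2, 12.04, 15.1 and 20.1 FPKM in KO_PD libraries, 11.8, 11.96, 13.2 and 20.1 in KO_vehicle libraries, 8.2, 7.5, 27.8 and 20.2 in WT_PD libraries and 10.97, 15.9, 19.1 and 14.03 in WT_vehicle libraries. The order of the libraries was close to that of Rpl10. Per unit of the marker mean on the log2 scale, with groups as terms, Rpl10 rose by 0.45 ± 0.03 (SE; adjusted p = 1.66e-08, limma), Rps4x by 0.42 ± 0.03 (adjusted p = 4.82e-08), Rpl39 by 0.44 ± 0.05 (adjusted p = 9.3e-06) and Rpl36a by 0.14 ± 0.04 (adjusted p = 0.00862). These slopes were also examined after the values were seen. The median member itself rose with the markers. Subtracting it lowers every slope, so shares of all genes are no like background on that scale. Relative to the median member, 5 members were called higher (background 18.5%) and 4 lower (34.5%). Rpl10, Rpl39 and Rps4x had slopes of 0.38, 0.36 and 0.34 that passed on this scale, and so did autosomal Rps9 and Rpl13, with slopes of 0.09 (adjusted p = 0.0180) and 0.08 (adjusted p = 0.0274). X-linked Rpl36a had 0.07 (adjusted p = 0.0925).

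The correlations over the 16 libraries are given as a description, with no test, since these genes were picked for their slopes. For Rpl10, Pearson's r was 0.964 and Spearman's rho 0.976, and leaving out the 2 libraries whose marker level was farthest from the median gave r = 0.956. Among lower-numbered libraries alone r was 0.973, and among higher-numbered ones 0.955 (n = 8 each). For Rps4x r was 0.950 and rho 0.962, and for Rpl39 r was 0.891 and rho 0.888. Rpl36a had r = 0.711 over all libraries, 0.272 among the lower-numbered and 0.755 among the higher-numbered ones. The marker genes and the members share each library's depth and scaling.

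The autosomal counterparts of these genes had no upward slope that passed. Rpl10l and Rpl39l are annotated as protein-coding, whereas Rps4l is annotated in GENCODE M21 as a transcribed processed pseudogene. Rpl10l on chromosome 12 had 38.2 to 59.7 FPKM, Rps4l on chromosome 6 had 114 to 154 FPKM and Rpl39l on chromosome 16 had 89.1 to 149 FPKM over the 16 libraries. The highest values of Rpl10l and Rpl39l were both in KO_vehicle 3, the library with the most Prm1. Their slopes were -0.06 ± 0.04 (SE; adjusted p = 0.179, limma) for Rpl10l, -0.03 ± 0.03 (adjusted p = 0.536) for Rps4l and -0.11 ± 0.04 (adjusted p = 0.0258) for Rpl39l. Rpl39l thus fell with the markers, with an adjusted p of 0.0724 without KO_vehicle 3, 0.0537 without WT_PD 2 and 0.0582 without WT_PD 4. Dividing by total FPKM moved the median slope of all genes by -0.10, to -0.09, and the slopes of Rpl10l, Rps4l and Rpl39l to -0.16, -0.13 and -0.21, a shift of like size. X-linked Rpl10, Rps4x and Rpl39 still rose on that scale. No 50-base stretch of Rpl10, Rps4x or Rpl39 occurs in its counterpart, so reads could be told apart at that length. On the per-length scale Rpl39l exceeded Rpl39 in 16 of 16 libraries and Rps4l exceeded Rps4x in 15 of 16, whereas Rpl10 exceeded Rpl10l in 14 of 16. These orders depend on the length used. Rps4x has 1631 bases of summed exons but a longest coding transcript of 975 bases, beside 943 bases of exons for Rps4l. The order by transcript length was not tested.

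**Figure D4:**
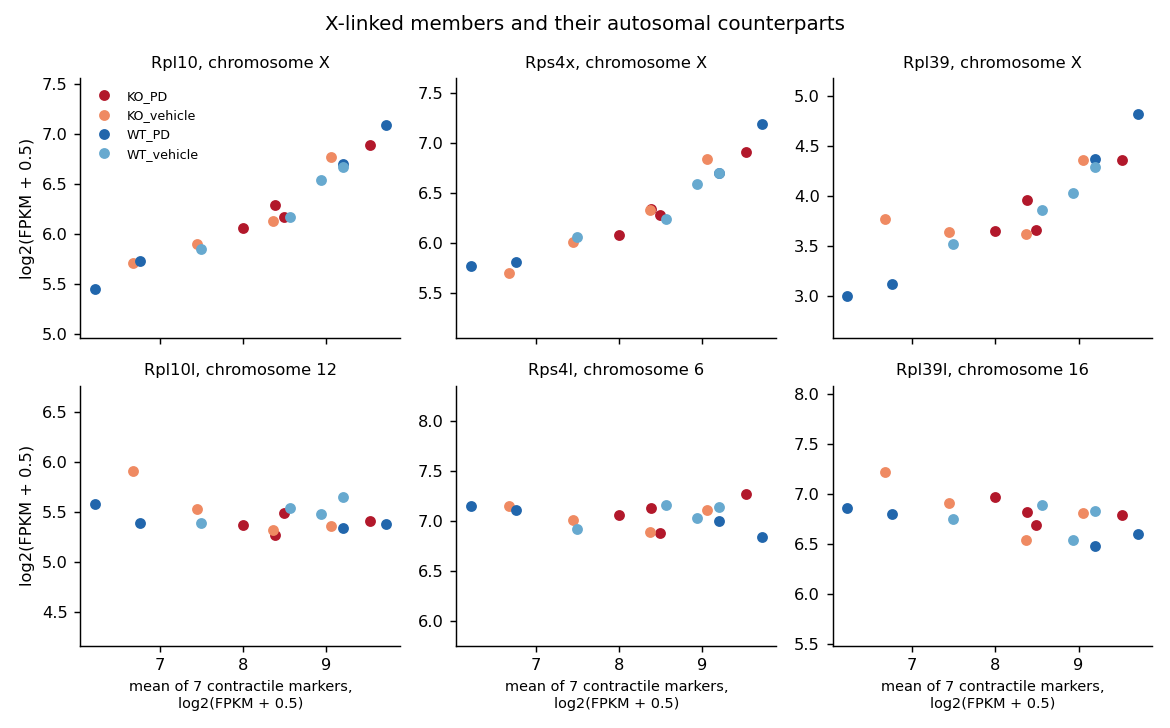
log2(FPKM + 0.5) of 3 X-linked members (upper row) and of their autosomal counterparts (lower row; Rps4l is annotated as a pseudogene) against the mean of 7 contractile markers, 1 point per library coloured by group, each panel spanning the same 2.6 units. The upper points rise with the markers, and the lower points stay level or fall slightly.

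Other X-linked genes had no such common slope. Of the 75 members 70 had a slope above 0, with a median of 0.07, beside 0.01 over all genes. After dividing by total FPKM 21 members were above 0, and after median centring 44. Among 473 X-linked genes tested, 31.3% were called higher and 28.8% lower with the marker mean, beside 32.2% and 21.4% of autosomal genes. Over all genes 32.0% were called higher and 21.8% lower, and of the 75 members 18 (24.0%) were called higher and 0 lower. The slopes of Rpl10, Rps4x and Rpl39 were at least 0.35, 0.32 and 0.35 with each scaling and with the library numbers as a term, whereas Rpl36a then had 0.04 (adjusted p = 0.278) by total FPKM, 0.09 (adjusted p = 0.0695) by median centring and 0.09 (adjusted p = 0.0936) with the library numbers. After dividing by total FPKM, 4 members were called higher (background 20.1%) and 11 lower (48.3%), after median centring 7 higher (23.9%) and 1 lower (40%), and with the library numbers as a term 8 higher (28.7%) and 0 lower (19.3%). Of the 10 markers of undifferentiated spermatogonia, 6 were called lower with the marker mean and 0 higher, with a median slope of -0.12. All 4 meiotic markers were called lower, with a median of -0.36, and of 4 markers of differentiating spermatogonia 0 were called. The share of the contractile markers' source cells in these slopes was not tested.

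Rpl26 and Rpl35a departed in other libraries. Rpl26, near the exit tunnel, had 98.5, 120.7, 118.0 and 163.8 FPKM in KO_PD libraries, 41.9, 143.4, 174.0 and 167.4 in KO_vehicle libraries, 145.7, 135.1, 163.1 and 63.7 in WT_PD libraries and 102.3, 52.9, 133.5 and 117.6 in WT_vehicle libraries. It was under 70 FPKM in 3 libraries of 3 groups and above 95 FPKM in the other 13. Rpl35a, which is mutated in some patients with Diamond-Blackfan anaemia, had 21.2, 55.4, 39.1 and 43.1 FPKM in KO_PD libraries, 29.3, 23.6, 27.4 and 37.7 in KO_vehicle libraries, 35.6, 31.6, 24.95 and 38.2 in WT_PD libraries and 21.6, 22.8, 27.2 and 49.0 in WT_vehicle libraries. It was above 40 FPKM in KO_PD 2, KO_PD 4 and WT_vehicle 4 and correlated least of all members with the others (r = 0.444). Rpl26 shares 44.04% and Rpl35a 28.1% of its 50-base stretches with other annotated genes.

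Rps2 and Rpsa, the next least correlated apart from Rps10, have pseudogenes in the table that were near 0 in some libraries and high in others. These pseudogenes, Rps2-ps13 and Rpsa-ps10, were picked after their values were seen. Rps2 had 236, 246, 227 and 303 FPKM in KO_PD libraries, 126.9, 224.1, 269 and 255 in KO_vehicle libraries, 248, 179, 145.6 and 287 in WT_PD libraries and 180.4, 252, 254 and 197 in WT_vehicle libraries. Rps2-ps13 was under 1 FPKM in 10 libraries and above 40 FPKM in 6, namely KO_PD 3, KO_vehicle 1, WT_PD 2 and 3 and WT_vehicle 1 and 4. In those 6 libraries Rps2 had 126.9 to 227 FPKM, and in the other 10 it had 224.1 to 303 FPKM. The summed FPKM of both genes ranged 1.42-fold over the 16 libraries, where Rps2 alone ranged 2.39-fold. Rps2 has 1830 bases of summed exons and Rps2-ps13 882, so this per-length sum is not a sum of reads. Of the 50-base stretches of Rps2, 41.4% occur in Rps2-ps13.

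Rpsa had 114 to 188 FPKM and Rpsa-ps10 3.15 to 201 FPKM, under 5 FPKM in 6 libraries and above 70 FPKM in 10. In the 6 libraries with little Rpsa-ps10, Rpsa had 167 to 188 FPKM, and in the other 10 it had 114 to 183 FPKM. The summed FPKM of both genes ranged 2.03-fold over the 16 libraries, where Rpsa alone ranged 1.65-fold. Rpsa has 3170 bases of summed exons and Rpsa-ps10 885, so a read weighs more under the pseudogene. The sum is therefore not one of reads, and its range cannot show whether reads moved between the genes. Of the 50-base stretches of Rpsa, 24.9% occur in Rpsa-ps10. For both pseudogenes the high libraries were spread over all 4 groups, and they were partly different libraries. Whether reads of a member were counted under a pseudogene in some libraries was not tested.

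**Figure D5:**
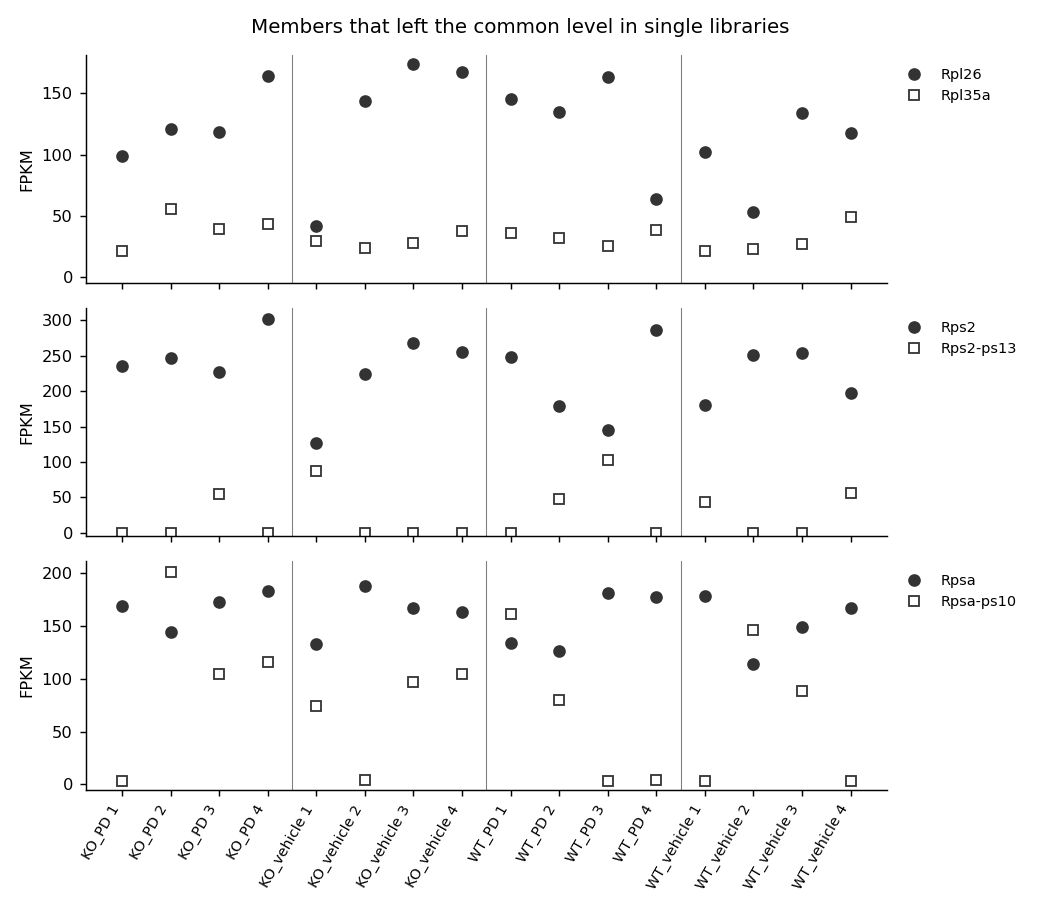
FPKM in each of the 16 libraries, ordered by group, of Rpl26 and Rpl35a (top), Rps2 and Rps2-ps13 (middle) and Rpsa and Rpsa-ps10 (bottom). Rpl26 drops under 70 FPKM in KO_vehicle 1, WT_PD 4 and WT_vehicle 2, and the pseudogenes stand either near 0 or above 40 FPKM.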

How the data were processed

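Per the labels' protocols, stranded libraries of polyadenylated RNA were made from 16 samples of sorted spermatogonia. The authors deposited 1 table of FPKM, a length- and depth-normalized value, and the submitters' processing notes name FastQC, STAR 2.7.10a and edgeR 4.0.14 and the builds mm10 and GRCm39, with no role for either build. How shared reads were counted is not given in the sources used here. All columns matched a sample by name. The columns of WT_PD 4 and WT_vehicle 4 carry more decimals than the other 14. Low values were whole multiples of 1 read, within 0.1, for 92.9 to 94.2% of values under 100 reads, which gave the counted reads; the number each FPKM was divided by is a normalised size that 5 libraries' counted reads exceed. Gene positions and shared 50-base stretches came from GENCODE M21 (GRCm38), matched by symbol for 15772 genes.

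The filter kept the 12907 genes that reached 1 FPKM in 4 or more libraries and left out 3476. The log2(FPKM + 0.5) values were fitted in R 4.3.3 with limma 3.58.1, 1 mean per group over all 16 libraries, two-sided, with Benjamini-Hochberg adjustment over all genes. Fold changes on this scale understate changes of low genes. A second fit used values less the library's median member. Comparisons of library numbers and of the contractile marker mean were added after the data were seen. The procedure was tested on simulated data. The members and lists were chosen with earlier results of these data known. Members were named if past the threshold (at most 15 by p; otherwise the 3 smallest p), among the 5 highest, lowest, widest, tightest or least correlated, or on a list of separate roles; some genes that this rule names are not reported here.

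Libraries share replicate numbers 1 to 4. Of 24 pairs of same-numbered libraries, 10 had a correlation of deviations above 0.1 (range -0.53 to 0.73), so the numbers were not taken to pair them.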

Additional observations from a re-analysis of the deposited data

Results flagged for a closer look

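In 11 of 252 groups of 4 libraries examined, 1 library stood so far from the other 3 that the gap took up most of the group's range (Dixon's criterion at 95%), which chance alone would do for about 1 group in 20. In KO_PD, Rpl36a had 65.6 FPKM in library 4, against 41.4 to 42.6 FPKM in the others. In KO_vehicle, library 4 was high for Rpl3, at 91.9 FPKM against 74.3 to 76.0, and for Rpl39, at 20.1 FPKM against 11.8 to 13.2, and library 1 was low for Rpl4, at 692 FPKM against 789 to 807, and for Rps3, at 102.4 FPKM against 119.7 to 122.8. In WT_PD, Rps10 had 4.77 FPKM in library 4, against 3.77 to 3.87, and Rps26 had 187 FPKM in library 1, against 169 to 172. In WT_vehicle, library 3 was high for Rpl18 at 84.9 FPKM against 77.3 to 77.8, for Rpl27a at 72.2 FPKM against 60.7 to 62.6 and for Rps27a at 140.0 FPKM against 119.8 to 122.3. The members' share of summed FPKM was low in WT_vehicle 2, at 4.87% against 5.42 to 5.49%.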

How the results depend on the processing

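The pseudocount (0.1 or 1), no filter or a filter at 5 FPKM, fitting only the groups compared and the replicate block left 0 members called in all 5 treatment comparisons. With the replicate number as a block the counts were 0 called and 0 departing, as without it. Scaling by total FPKM, median centring, the library numbers or the marker mean as a term, leaving out any 1 library and, where they enter, leaving out both libraries of more decimals also gave 0. For higher against lower library numbers, the 34 calls became 11 by total FPKM, 18 by median centring and 14 with the marker mean, and 15 to 40 without single libraries; the 20 departures became 13 without the libraries of more decimals and 11 to 22 without single libraries. For the marker mean, the 18 calls became 8 by median centring and 8 with the library numbers as a term, and 9 to 34 without single libraries (9 without WT_PD 3, 31 without KO_vehicle 1, 34 without KO_vehicle 3); the 9 departures became 3 to 15. Without mitochondrially encoded genes the members' share was 6.23% in KO_PD, 5.84% in KO_vehicle, 5.54% in WT_PD and 5.77% in WT_vehicle libraries. The cause of these moves was not tested. With 4 libraries a group, pairwise differences of members as large as 0.52 on the log2 scale, that of Rps29, did not pass. The median standard error of a member was 0.12, and that of Rps29 was larger. Reads shared with pseudogenes limit the level of single members.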
